A study of Mus musculus with 8 samples.

Results

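Wnt signalling genes were examined as a group in adult mouse dorsal root ganglia with and without an intact Tmem184b gene. The group comprised 65 of the 40800 genes in the deposited table. They were taken by symbol: 19 Wnt ligands, 10 Frizzled receptors, the coreceptors Lrp5 and Lrp6, 3 Dishevelled adaptors, 4 Dickkopf and 4 secreted Frizzled-related proteins, 4 R-spondins with their 3 Lgr receptors, and the regulators, destruction complex genes and transcription factors downstream. Ganglia came from C57BL/6 wild-type mice (samples 1, 3, 4 and 8) and from mice homozygous for a Tmem184b gene trap on the C57BL/6 background (samples 1, 2, 3 and 4), all 6 months old. In a gene trap allele an inserted cassette takes over splicing, so that the transcript is cut short. The design text counts 4 mice per genotype, which makes each sample 1 animal. The limma p-values rest on the spread between these animals, with the variance of each gene moderated toward a trend over all genes tested. No agent is named, and the spinal levels taken are not given in the sources used here.

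Wnt proteins are secreted lipid-modified ligands that bind a Frizzled receptor together with Lrp5 or Lrp6. This stops the destruction complex of Axin, Apc and Gsk3 from degrading beta-catenin, which then acts with TCF/LEF factors on target genes, among them the feedback genes Axin2, Lgr5, Nkd1, Znrf3 and Rnf43. R-spondins, held by Lgr4, Lgr5 or Lgr6, strengthen the signal by removing the ubiquitin ligases Znrf3 and Rnf43, which otherwise clear Frizzled receptors from the cell surface. In the peripheral nervous system the pathway is known for its part in the formation of sensory neurons from the neural crest and in axon growth and Schwann cell development.

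Libraries held 6183618 to 7983821 reads. Tmem184b ran from 7.36 to 7.51 log2 CPM in wild-type samples and from 2.47 to 3.10 in mutant samples, which matched the genotype labels. All 13 sensory neuron identity markers were present, each with at least 438 reads in every library. The labels give no sex. Xist lay between 7.72 and 8.25 log2 CPM in 5 libraries and between -0.89 and 0.37 in wild type 3, mutant 3 and mutant 4, and these 3 libraries alone had Ddx3y above 5 log2 CPM.

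Of the 65 genes, 50 passed the filter on low values (log2 CPM above 0 in at least 4 of 8 samples) and 15 did not. Mutant ganglia differed from wild type in 6 of the 50 (12%) at a limma adjusted p under 0.05, which is the threshold for a call throughout, against a background of 5.46% of all 15030 genes tested. Wnt2b, Rspo2, Dkk3 and Fzd5 fell (background for lower genes 2.64%), and Lgr4 and Lgr5 rose (background for higher genes 2.81%). The direction split depends on scaling: over all genes 423 were called higher and 397 lower as deposited, 204 and 706 under median centring, and 271 and 422 under quantile normalization. Of the members, 0 were called higher under median centring. Single samples mattered too, since 4 members were called higher without mutant 3 and 0 without wild type 3, wild type 8 or mutant 4. The median log2 difference was 0.06 over the 50 genes and 0.07 over all genes tested. Groups did not overlap for 10 of the 50 (20%), against 12.4% of all genes tested. Among these, Sfrp2 passed the filter through its mutant samples alone, which fixed its lack of overlap. All differences below are mutant minus wild type on the deposited log2 scale, which adds a small prior to each count and understates the change of genes with few reads. In whole ganglia, fewer cells of a type and less RNA per cell cannot be told apart.

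**Figure D1:**
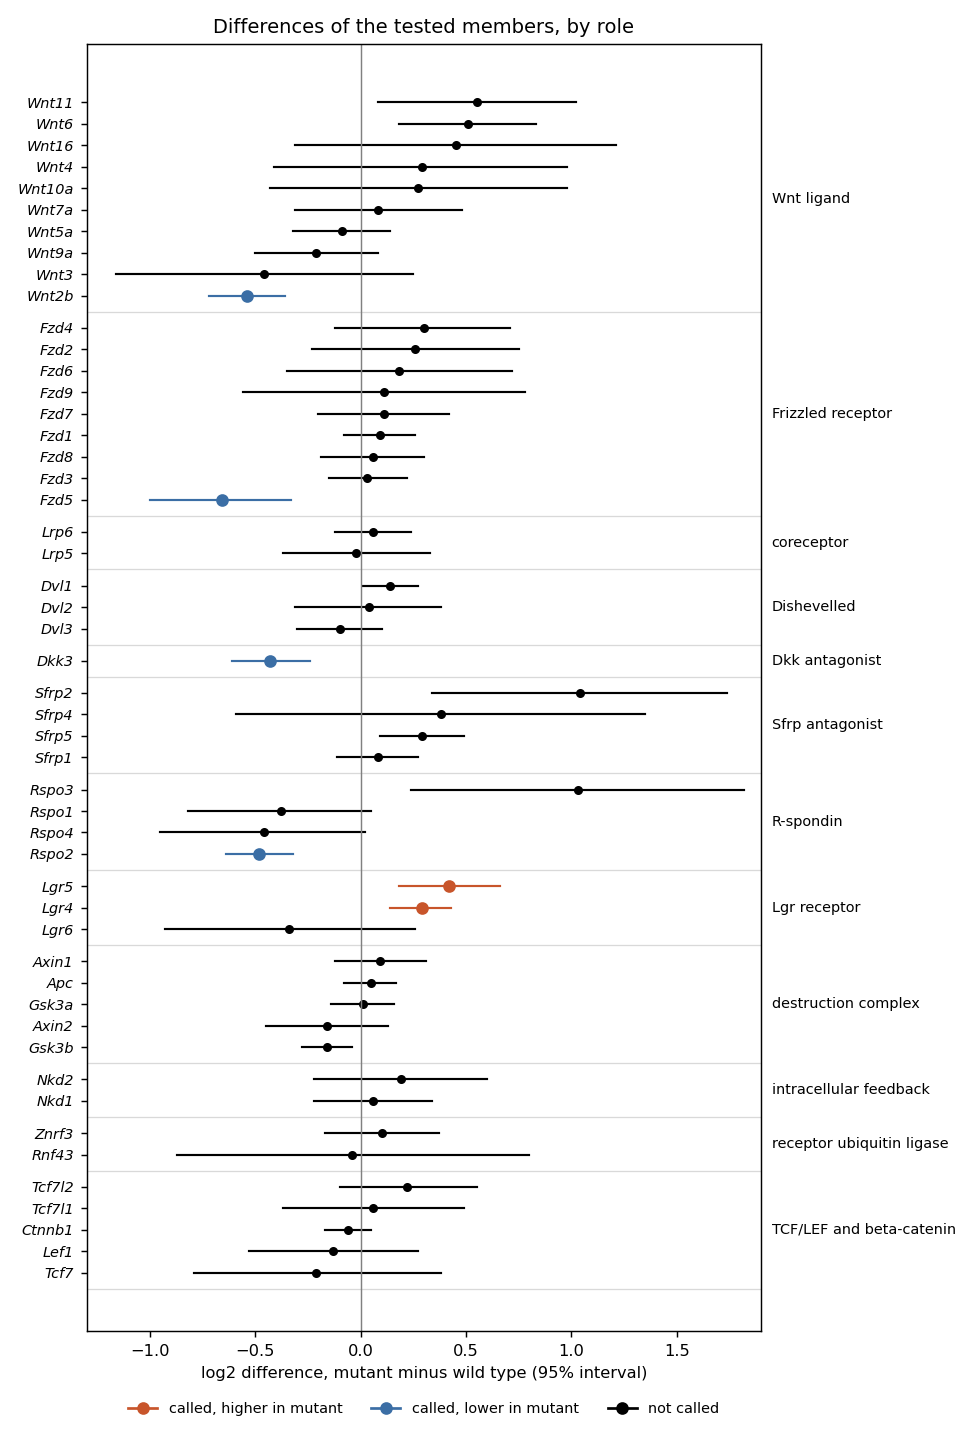
Log2 difference (mutant minus wild type, horizontal axis) of each of the 50 tested members with its 95% interval, grouped by role. Blue points were called lower and orange points called higher in the mutant at a limma adjusted p under 0.05. Wnt2b, Fzd5, Dkk3 and Rspo2 lie to the left of 0 and Lgr4 and Lgr5 to the right. The intervals of Apc, Gsk3a and Ctnnb1 are narrow and include 0. That of Gsk3b, not called, is narrow and lies below 0 (-0.28 to -0.04).

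Promoter sequence is shown for a called member that fell, Fzd5, and for one that rose, Lgr4, to set them side by side. Both come from the RefSeq table (GRCm38.p6), which held 3 of the 6 called members. Each run is the 250 bases before the RefSeq start, 5′ to 3′ on the gene's strand: Fzd5 from chr1:64737751-64738000 (minus) and Lgr4 from chr2:109917397-109917646 (plus). Capitals mark the letters CCAAT on either strand, a common promoter box. The start of Wnt2b in the table lies inside its first exon in GENCODE M21, which covers 212 of the 250 bases, so that its window is not shown.
Fzd5: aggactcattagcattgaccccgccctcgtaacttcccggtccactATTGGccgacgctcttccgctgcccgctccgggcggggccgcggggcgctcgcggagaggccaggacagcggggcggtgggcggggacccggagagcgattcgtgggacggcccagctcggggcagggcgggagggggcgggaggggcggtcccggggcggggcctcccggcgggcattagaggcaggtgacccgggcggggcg
Lgr4: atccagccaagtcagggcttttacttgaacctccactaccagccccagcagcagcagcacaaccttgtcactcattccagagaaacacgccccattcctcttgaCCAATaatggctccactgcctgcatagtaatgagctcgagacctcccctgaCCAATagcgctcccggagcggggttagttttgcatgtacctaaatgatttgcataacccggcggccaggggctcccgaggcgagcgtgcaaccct

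The promoter of Fzd5 held 32 CpG pairs and 76.4% G and C, and that of Lgr4 held 10 pairs and 55.6%. The medians over all 32851 windows of the table were 6 pairs and 52.4%. CCAAT occurred in both, in 33.8% of all windows and in 15 of the 54 windows of the 44 members with an entry. The TCF/LEF letters, CTTTG followed by 2 bases that are each A or T, were in neither on either strand, so that none overlapped a CCAAT, in 7 of the 54 member windows and in 14.8% of all windows. Both sets of letters were chosen with results known, and a match describes letters in a short window, not binding.

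Among ligands, Wnt2b, which signals through beta-catenin, was the most abundant per kilobase of exon in wild-type ganglia. It was the 1 called of 10 ligands tested, against the background of 5.46%. On the log2 CPM scale it measured 5.75, 5.60, 5.45 and 5.56 in wild types 1, 3, 4 and 8, and 5.0, 5.17, 5.09 and 4.93 in mutants 1 to 4. Every mutant lay below every wild type. The level went from 48.0 ± 4.28 to 32.8 ± 2.43 CPM (SD, n = 4), 68.3% of wild type, a log2 difference of -0.54 (SE 0.0845; limma adjusted p = 0.00212). Wnt2b and the other 5 called members each had a two-sided p of 0.0286 in an exact permutation of the samples, which is as low as 4 against 4 can go. Wnt2b (ENSMUSG00000027840) lies on chromosome 3 from 104945272 to 104961921, minus strand, in the GRCm38 build.

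To compare ligands with each other, CPM was divided by the exon length of the gene in GENCODE M21, which is not necessarily the annotation behind the deposited values. On this scale Wnt2b stood at 11.4 CPM per kb in wild type, followed by Wnt9a at 5.79, Wnt6 at 5.44, Wnt5a at 4.54 and Wnt7a at 1.67. In the mutant Wnt2b was at 7.81 and Wnt6 at 7.67. The summed level of all 19 ligands was 31.9 ± 3.17 CPM per kb in wild type against 30.1 ± 1.62 in mutant ganglia (SD, n = 4), ranges that overlapped. Wnt2b made up 36.2 ± 4.80% of that sum in wild type and 26.0 ± 1.60% in the mutant, and Wnt6 16.9 ± 2.39% and 25.5 ± 2.64%. These shares are parts of 1 sum, so that a smaller share of one raises the shares of the others.

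Wnt6 was at 3.65, 3.33, 4.0 and 3.36 log2 CPM in wild-type samples against 4.18, 4.14, 3.84 and 4.21 in mutant samples. The groups overlapped through wild type 4 and mutant 3. The log2 difference was 0.51 (SE 0.151; limma adjusted p = 0.0657), with a 95% interval of 0.18 to 0.83. It was called without wild type 4 (0.64; limma adjusted p = 0.0132) and without mutant 3 (0.59; 0.0394). With the Xist covariate included, Wnt6 was called in 3 of 21 alternative fits. Wnt11, a ligand best known for beta-catenin-independent signalling, was at 1.03, 1.12, 1.70 and 1.49 in wild-type samples against 2.06, 2.0, 1.75 and 1.72 in mutant samples. Every mutant was above every wild type, from 11 to 20 reads per wild-type library and 20 to 26 per mutant library, but the difference of 0.55 was not called (SE 0.219; limma adjusted p = 0.161). An annotated pseudogene overlaps Wnt11 on the other strand.

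Wnt5a, a ligand of the planar polarity branch, differed by -0.09 with an interval of -0.32 to 0.14, and Wnt9a by -0.21 (-0.50 to 0.08). Intervals were wider for the weakly expressed ligands Wnt3, Wnt4, Wnt7a, Wnt10a and Wnt16, with differences from -0.46 for Wnt3 to 0.45 for Wnt16, and none was called. The other 9 ligands did not pass the filter. Wnt8a had 0 reads in all libraries and Wnt1 had 1 read in wild type 3 alone. Wnt3a reached 3 reads, Wnt2 3, Wnt9b 3, Wnt10b 3, Wnt8b 4, Wnt7b 5 and Wnt5b 7 in any library, close to the 3 reads taken as the floor of detection.

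Several Wnt genes lie side by side in the GRCm38 genome, and in 2 of 4 such pairs 1 gene was far above its neighbour. Wnt9a (chromosome 11, 59306928 to 59333552) had 123 to 155 reads in wild-type samples, while Wnt3a, 16.2 kb away (59248033 to 59290752), had 0 to 3. Wnt6 (chromosome 1, 74771892 to 74785322) stood at 5.44 CPM per kb in wild type and Wnt10a, 6.2 kb away (74791516 to 74804179), at 0.493. The pairs Wnt9b with Wnt3 and Wnt10b with Wnt1, 24.3 and 11.7 kb apart, held at most 9 reads per gene in any library.

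**Figure D2:**
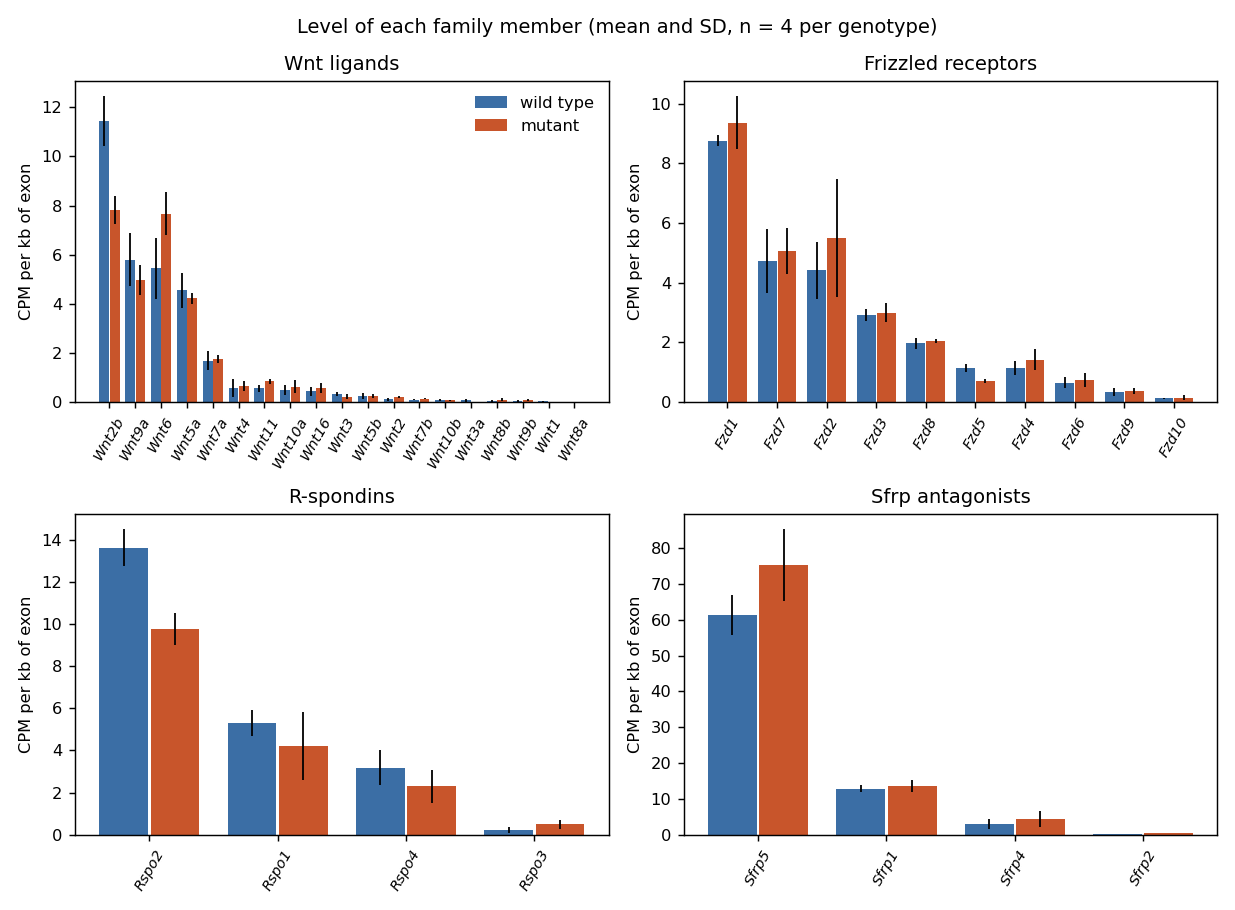
Level of each Wnt ligand, Frizzled receptor, R-spondin and secreted Frizzled-related protein in CPM per kb of exon (vertical axes), as bars for the mean and lines for the SD of 4 samples per genotype. In wild type Wnt2b, Fzd1, Rspo2 and Sfrp5 have the highest bar of their family. In the mutant Wnt2b and Wnt6 stand at about the same height, 7.81 and 7.67.

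Of the 4 R-spondins tested 1 was called, against the background of 5.46%. This was Rspo2, which enhances Wnt signalling through the Lgr receptors. It was at 6.20, 6.20, 6.11 and 6.0 log2 CPM in wild-type samples against 5.58, 5.74, 5.75 and 5.53 in mutant samples. All mutants were below all wild types. Its level went from 69.8 ± 4.45 to 50.0 ± 3.87 CPM (SD, n = 4), 71.7% of wild type, a difference of -0.48 (SE 0.0749; limma adjusted p = 0.00224). Rspo2 (ENSMUSG00000051920; chromosome 15, 43020794 to 43170826, minus strand) made up 61.1 ± 4.03% of the summed R-spondin level per kb in wild type and 59.1 ± 6.20% in the mutant.

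Rspo1, also an Lgr ligand, was at 3.34, 3.20, 3.47 and 3.57 log2 CPM in wild-type samples against 2.61, 2.92, 3.71 and 2.81 in mutant samples. Mutants 1, 2 and 4 lay below all wild types and mutant 3 above them. The difference was -0.38 (limma adjusted p = 0.295), and without mutant 3 it was -0.62 and passed (limma adjusted p = 0.0312). That was the 1 of 21 alternatives in which Rspo1 was called. Rspo4 was also highest in mutant 3 among the mutants, at 2.34, 2.32, 3.08 and 2.15 against 3.17, 2.87, 2.41 and 3.29 in wild-type samples, a difference of -0.46 (limma adjusted p = 0.263). Rspo3 had an estimate in the other direction from few reads, 2 to 8 per wild-type library and 7 to 17 per mutant library, at 1.03 with an interval of 0.24 to 1.82 (limma adjusted p = 0.123). The summed R-spondin level was 21.5 to 23.2 CPM per kb in wild-type samples against 14.7 to 20.9 in mutant samples.

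Of the 3 Lgr receptors, 2 were called higher, against a background of 2.81% of all genes tested. Lgr4 (ENSMUSG00000050199; chromosome 2, 109917647 to 110014257, plus strand) was at 6.06, 6.0, 6.01 and 5.90 log2 CPM in wild-type samples against 6.17, 6.27, 6.29 and 6.39 in mutant samples, without overlap. Its level went from 63.4 ± 2.92 to 77.5 ± 4.92 CPM (SD, n = 4), a difference of 0.29 (SE 0.0669; limma adjusted p = 0.0221). Lgr5 (ENSMUSG00000020140; chromosome 10, 115450311 to 115587780, minus strand), both a receptor and a classical beta-catenin target, was at 3.83, 3.78, 3.83 and 3.68 in wild-type samples against 4.02, 4.23, 4.44 and 4.10 in mutant samples. Again every mutant was higher, with 13.5 ± 0.683 and 18.2 ± 2.38 CPM (SD, n = 4) and a difference of 0.42 (SE 0.113; limma adjusted p = 0.0446).

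Both rises lay close to the threshold and kept their direction in all 21 alternatives. Lgr4 was called in 14 of them and lost its call under median centring (0.20; limma adjusted p = 0.124), without the variance trend (0.29; 0.104), and without wild type 3 (0.0531), wild type 8 (0.0562) or mutant 4 (0.0601). Lgr5 was called in 6, and was lost under median centring (0.33; limma adjusted p = 0.120), quantile normalization (0.32; 0.140) with the Xist covariate (0.40; 0.0663) and without any 1 sample other than mutant 1 (0.0536 to 0.102). Lgr6, with 5 to 16 reads per library, differed by -0.34 (-0.93 to 0.26). The ubiquitin ligase Znrf3, which R-spondin and Lgr receptors remove, differed by 0.10 (-0.17 to 0.37), and its relative Rnf43 had 1 to 6 reads per library.

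**Figure D3:**
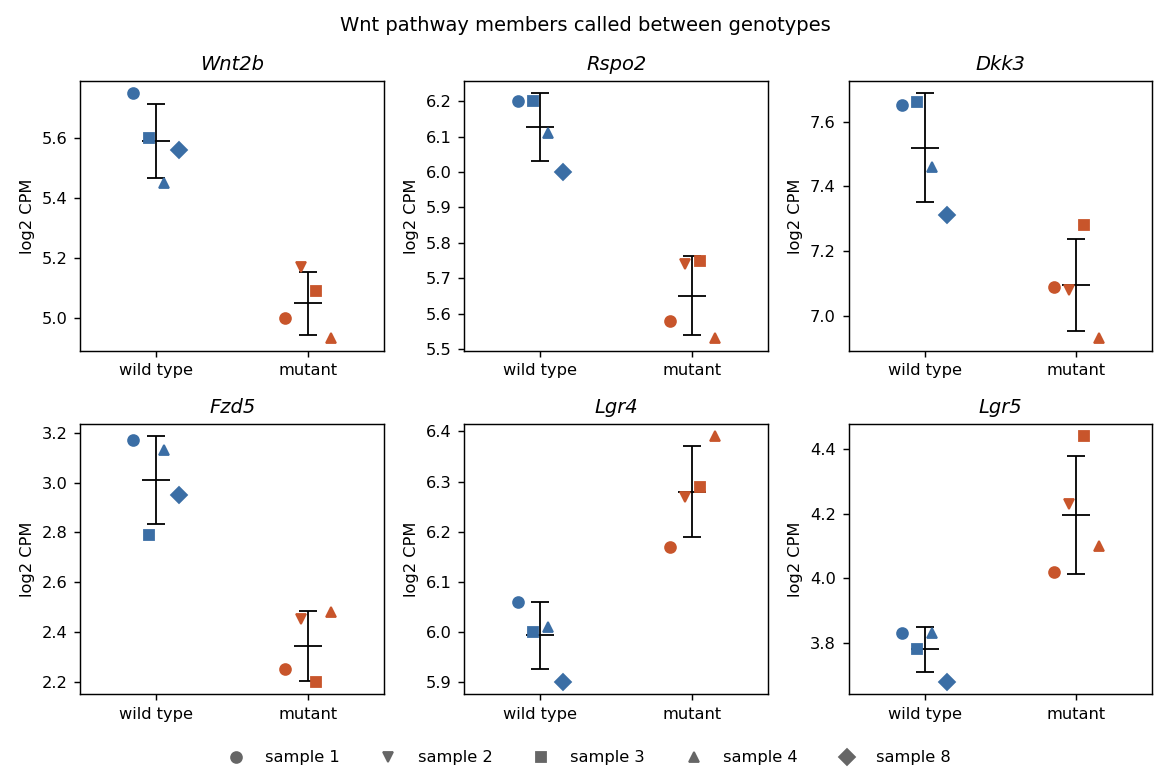
Log2 CPM (vertical axes, which do not start at 0) of the 6 called members in each sample, with the mean and SD of 4 samples per genotype. Symbols give the sample number in the labels, which is not stated to pair animals. In each panel the 2 genotypes occupy separate ranges.

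Among antagonists, the one called was Dkk3, a divergent Dickkopf family member that, unlike Dkk1, is not known to block Lrp6. It measured 7.65, 7.66, 7.46 and 7.31 log2 CPM in wild-type samples against 7.09, 7.08, 7.28 and 6.93 in mutant samples. The groups did not overlap, though wild type 8 and mutant 3 were close. The level went from 184 ± 20.9 to 137 ± 13.7 CPM (SD, n = 4), a difference of -0.43 (SE 0.0856; limma adjusted p = 0.0107). The call was lost when the mean-variance trend was left out of the fit (limma adjusted p = 0.106). Dkk3 (ENSMUSG00000030772) lies on chromosome 7 from 112116017 to 112159057, minus strand. The Lrp6 blockers Dkk1, Dkk2 and Dkk4 did not pass the filter, with at most 1, 6 and 1 reads in a library, and the secreted inhibitors Wif1 and Notum had at most 3 and 6.

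Secreted Frizzled-related proteins bind Wnt ligands outside the cell. Sfrp5 was the most abundant, at 61.4 CPM per kb in wild type and 75.3 in the mutant, ahead of Sfrp1 at 12.8 and 13.6. Sfrp5 was at 6.88, 6.71, 7.03 and 6.84 log2 CPM in wild-type samples against 7.23, 7.27, 6.84 and 7.27 in mutant samples. Only mutant 3 lay within the wild-type range, and the difference of 0.29 was not called (SE 0.0930; limma adjusted p = 0.0872). Without mutant 3 it was 0.39 and was called (limma adjusted p = 0.00638), as it was without wild type 4 (0.34; 0.0480). With the Xist covariate included, Sfrp5 was called in 3 of 21 alternatives.

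Sfrp4 varied most among the members within the mutant group. It was at 3.51, 2.79, 4.36 and 3.53 log2 CPM in wild-type samples against 4.49, 4.58, 2.10 and 4.55 in mutant samples. Mutant 3 held 26 reads of Sfrp4 and the other mutants 146 to 162. The difference was 0.38 (SE 0.454; limma adjusted p = 0.678) with all samples and 0.99 (limma adjusted p = 0.0314) without mutant 3. That was the 1 of 21 alternatives in which Sfrp4 was called, and the estimates ran from 0.13 to 0.99. Sfrp2 was low, with 1 to 4 reads per wild-type library and 5 to 9 per mutant library. It measured -1.16, -0.34, -0.45 and -0.88 log2 CPM in wild-type samples against 0.25, 0.13, 0.28 and 0.66 in mutant samples. The difference of 1.04 was not called (SE 0.328; limma adjusted p = 0.0814). The groups did not overlap, but no wild type was above the filter's limit of 0. Sfrp2 was thus tested only because every mutant was above it, which fixed the lack of overlap in advance. An antisense gene overlaps Sfrp2. Sfrp1 differed by 0.08 (-0.11 to 0.27).

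Mutant 3 thus stood apart in Sfrp4, Sfrp5, Wnt6, Rspo1 and Rspo4, a set picked after these values were seen. Markers of other cells also differed between libraries. The 8 fibroblast markers summed to 633.5 to 1264 CPM in wild-type samples, with wild type 4 highest, and to 816.7 to 1234 CPM in mutant samples, with mutant 3 lowest. Single markers did not all follow the sum. Col1a1, Col1a2, Col3a1, Pdgfra, Mgp and Slc6a13 were lowest in mutant 3 among the mutants, while Dcn and Lum were not. All 8 fibroblast estimates were above 0, as were 9684 of all 15030 genes tested. The median of the 8 was 0.34, against 0.07 over all genes tested. Of the 8, 1 was called, beside a background of 5.46%. Fibroblasts were not alone in this. Mutant 3 was also the lowest mutant in the marker sums of satellite glia (2355 CPM), macrophages (66.4 CPM) and NP3 sensory neurons (457.8 CPM). It was the highest in that of NP1 sensory neurons (1025 CPM) and at neither end in the remaining marker sums. Wild type 4 was also the highest wild type for macrophages (74.5 CPM) and myelinating Schwann cells (3202 CPM). The part of any of these cells in the values of Sfrp4, Sfrp5, Wnt6 and the R-spondins was not tested.

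**Figure D4:**
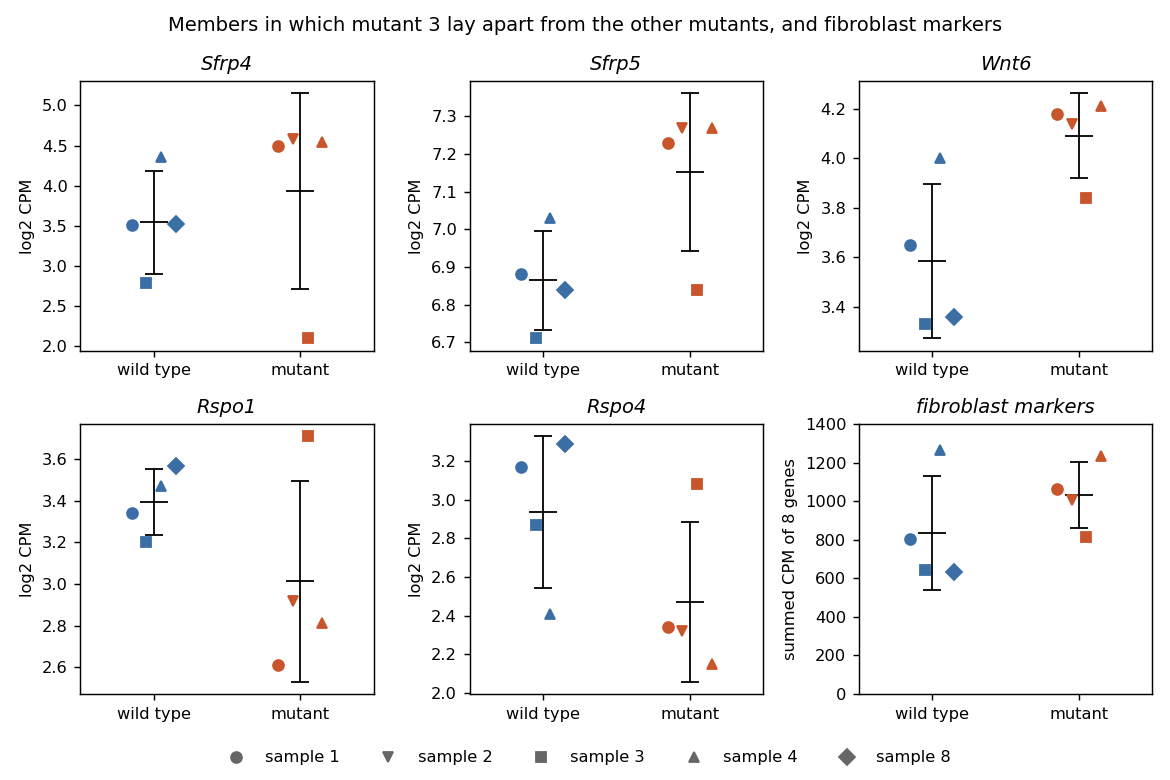
Log2 CPM of Sfrp4, Sfrp5, Wnt6, Rspo1 and Rspo4 and the summed CPM of 8 fibroblast markers in each sample, with the mean and SD of 4 samples per genotype. Mutant 3 (square) lies below the other mutants in Sfrp4, Sfrp5, Wnt6 and the fibroblast sum and above them in Rspo1 and Rspo4. Vertical axes of the 5 gene panels do not start at 0.

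Of the 9 Frizzled receptors tested, Fzd5 was the 1 called, against the background of 5.46%. It was at 3.17, 2.79, 3.13 and 2.95 log2 CPM in wild-type samples against 2.25, 2.45, 2.20 and 2.48 in mutant samples, so that all mutants were lower. The level went from 7.82 ± 0.958 to 4.81 ± 0.490 CPM (SD, n = 4), 61.6% of wild type, from 53 to 59 reads per wild-type library and 28 to 37 per mutant library. The difference was -0.66 (SE 0.156; limma adjusted p = 0.0229), and the call was lost without wild type 1 (-0.61; 0.0821) or mutant 1 (-0.63; 0.0619). Fzd5 (ENSMUSG00000045005) lies on chromosome 1 from 64730558 to 64737751, minus strand. An annotated transcript overlaps it on the other strand, as others do Dact1 and Tle1 below. The same holds for several members not called, among them Ctnnb1, Axin2, Dvl2, Lef1, Gsk3a, Rspo3 and Wnt5a. Whether counting used the strand is not given in the sources used here.

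The other Frizzled receptors were not called. Fzd1, the most abundant at 8.76 CPM per kb in wild type and 9.37 in the mutant, differed by 0.09 (-0.08 to 0.26). Fzd3, a receptor of the planar polarity branch in growing axons, differed by 0.03 (-0.15 to 0.22), and Fzd8 by 0.06 (-0.19 to 0.30). Fzd2, Fzd4, Fzd6, Fzd7 and Fzd9 had differences from 0.11 to 0.30 with intervals that include 0, and Fzd10, with at most 5 reads in a library, did not pass the filter. Fzd2 and Fzd4 were again lowest in mutant 3 among the mutants, at 3.47 and 2.69 log2 CPM against 4.37 to 4.85 and 3.30 to 3.52.

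The signal-relaying backbone had no called member, which says little for so few genes beside a background of 5.46%. Lrp6 was at 6.72, 6.51, 6.88 and 6.54 log2 CPM in wild-type samples against 6.70, 6.64, 6.66 and 6.89 in mutant samples, a difference of 0.06 (-0.12 to 0.24). Lrp5 was at 4.38, 4.04, 4.71 and 4.07 and at 4.61, 4.18, 3.93 and 4.39, a difference of -0.02 (-0.37 to 0.33). For both coreceptors the ranges of the genotypes overlapped widely, and the sign turned under some alternatives. Of the Dishevelled adaptors, which carry the signal inward from Frizzled, Dvl1 was at 6.34, 6.40, 6.34 and 6.27 in wild-type samples against 6.42, 6.54, 6.54 and 6.41 in mutant samples. Its groups did not overlap, by a gap of 0.01, and the difference of 0.14 was not called (SE 0.0610; limma adjusted p = 0.209). Dvl2 differed by 0.04 (-0.31 to 0.38) and Dvl3 by -0.10 (-0.30 to 0.10).

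In the destruction complex, Gsk3b, a kinase that marks beta-catenin for degradation, was at 9.26, 9.23, 9.27 and 9.17 log2 CPM in wild-type samples against 9.09, 9.14, 9.14 and 8.93 in mutant samples. The mutants were all lower, by a small difference of -0.16 (-0.28 to -0.04) that was not called (SE 0.0570, limma adjusted p = 0.124). The scaffold Apc differed by 0.05 (-0.08 to 0.17), Axin1 by 0.09 (-0.12 to 0.31) and the second kinase Gsk3a by 0.01 (-0.14 to 0.16). Ctnnb1, which encodes beta-catenin, was at 8.90, 8.91, 8.94 and 8.79 in wild-type samples against 8.78, 8.82, 8.81 and 8.89 in mutant samples, overlapping, with a difference of -0.06 (-0.17 to 0.05). Apc, Gsk3b and Ctnnb1 held 2787 reads or more in every library, and the intervals bear on transcript levels, not on protein.

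Target and feedback genes are often used to read out beta-catenin activity. Axin2, the most general of them, was at 3.61, 3.47, 3.67 and 3.53 log2 CPM in wild-type samples against 3.39, 3.74, 3.25 and 3.26 in mutant samples. Mutants 1, 3 and 4 lay below all wild types and mutant 2 above them, a difference of -0.16 (-0.45 to 0.13; limma adjusted p = 0.542). Nkd1, which acts on Dishevelled, differed by 0.06 (-0.22 to 0.34) and Nkd2 by 0.19 (-0.22 to 0.60). The transcription factors Lef1, Tcf7, Tcf7l1 and Tcf7l2 differed by -0.13, -0.21, 0.06 and 0.22, each with an interval that includes 0. Among the feedback genes Axin2, Lgr5, Nkd1, Znrf3, Rnf43 and Notum, Lgr5 was the only one called, beside a background of 5.46%. That call held in 6 of 21 alternatives, and Notum was not tested.

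Other genes of the pathway were taken from 6 further lists of 102 genes, of which 96 were tested and 8 (8.33%) called, 3 higher and 5 lower, against the same background of 5.46%. Their median difference was 0.04. The count was 14 without wild type 4 and 4 or 5 without wild type 1, 3 or 8 or mutant 1, 2 or 4. Neither of the secretion genes and none of 13 further extracellular or membrane regulators was called. Of 20 further genes of the destruction complex and beta-catenin turnover, Dact1, a Dishevelled-binding regulator, rose by 0.75 (SE 0.159; limma adjusted p = 0.0142), from 2.94 to 3.49 log2 CPM in wild-type samples to 3.55 to 4.14 in mutant samples. Amer2, a membrane partner of Apc, fell by 0.34 (SE 0.0915; limma adjusted p = 0.0462).

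In the beta-catenin-independent branch, 2 of 24 genes (8.33%) were called, against the background of 5.46%. Camk2a, a calcium-dependent kinase, fell by 0.89 (SE 0.112; limma adjusted p = 0.000638), from 8.10 to 8.18 log2 CPM in wild-type samples to 6.80 to 7.49 in mutant samples. Daam2, a formin that binds Dishevelled, rose by 0.35 (SE 0.0779; limma adjusted p = 0.0178). Of 17 nuclear cofactors the corepressor Tle1 fell by 0.24 (SE 0.0624; limma adjusted p = 0.0372).

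Of 20 further target genes tested, 3 (15%) were called against the background of 5.46%, and in both directions. Plaur, the urokinase receptor, fell by 1.0 (SE 0.206; limma adjusted p = 0.0118), and Cd44, a hyaluronan receptor, fell by 0.47 (SE 0.0816; limma adjusted p = 0.00487). Cldn1, a tight junction gene, rose by 0.59 (SE 0.159; limma adjusted p = 0.0450) with overlapping groups. Camk2a kept its call in all 21 alternatives, Plaur and Cd44 in 20 and Dact1 in 18, while Daam2 did so in 17, Tle1 in 12, Amer2 in 11 and Cldn1 in 8. The targets Sp5, Ascl2, Cdx2 and Mmp7 did not pass the filter, with at most 2 reads in a library.

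Markers of some cell types differed between genotypes beside these genes, and other marker lists held 0 called genes. Marker transcripts of NP1 and NP3 sensory neurons, lists already known from earlier results of these data to be lower, summed to 1280 to 1402 and 672.4 to 720.5 CPM in wild-type samples and to 708.0 to 1025 and 457.8 to 499.8 CPM in mutant samples. The NP3 sum is mostly Jak1, which is widely expressed, at 544 CPM in wild type and 439 in the mutant (log2 difference -0.31). The median difference of the 8 NP3 markers was -1.86 with 7 called, among them Sst at -4.06, Nppb at -3.47, Il31ra at -3.28 and Cysltr2 at -2.32. All 6 NP1 markers were called lower, with a median of -0.70. The 13 sensory neuron identity markers summed to 11560 to 12440 and 10980 to 11370 CPM, with 10 of 13 estimates below 0 and 3 called. Satellite glia markers summed to 2070 to 2533 and 2355 to 3243 CPM (8 of 8 estimates above 0, 2 called), and myelinating Schwann cell markers to 2441 to 3202 and 2890 to 3488 CPM (7 of 8, 2 called), beside 9684 of 15030 genes above 0 and 5.46% called overall. Macrophage markers summed to 47.6 to 74.5 and 66.4 to 103 CPM (6 of 7 above 0, median 0.53, 1 called), and skeletal muscle markers to 4.13 to 38.5 and 12.6 to 176.5 CPM (7 of 7, median 1.62, 0 called). Endothelial and mural markers summed to 303.1 to 379.5 and 311.8 to 379.7 CPM (5 of 8 above 0, 0 called), and central nervous system glia markers to 60.2 to 117.4 and 79.8 to 116.0 CPM (7 of 7, 0 called), with 1 of 8 at 0 reads in all libraries. The part of any of these in the falls of Wnt2b, Rspo2, Dkk3 and Fzd5 or in the rises of Lgr4 and Lgr5 was not tested.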

How the data were processed

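RNA of dorsal root ganglia was sequenced in 4 wild-type and 4 mutant samples. The authors deposited moderated log2 CPM values, per the file headers and values. Salmon 0.11.1, DESeq2 and the mm9 build are named, without role, per the submitters' processing notes, and strand use is not given in the sources used here. The 402 repeated identifiers carried equal values and were used once. After the floor of -1.79 was taken off, 100% of values were whole reads within 0.02, which gave reads and library totals. Columns were matched to samples by genotype and number. Leading numbers in the column names, of meaning not given in the sources used here, are consecutive for the mutants only, so that what they track cannot be told apart from genotype. Differences were fitted with limma 3.58.1 (R 4.3.3; lmFit, eBayes with mean-variance trend, two-sided) over 15030 genes, with Benjamini-Hochberg adjustment. The fit was also run on simulated counts with the same dispersion for all genes. Changed genes there moved by more than the called members did, so that the run does not bear on differences as small as theirs. Single values used exact permutation over 70 assignments. Intervals are 95% from limma. GENCODE M21 (GRCm38, not the mm9 build) gave exon lengths and positions by identifier for all 65 members. Members and lists were chosen with earlier results of these data known. Values in every sample are given for members that were called, had non-overlapping groups or form the backbone (Ctnnb1, Lrp5, Lrp6, Gsk3b, Axin2), and by choice after seeing values for Wnt6, Sfrp4, Sfrp5, Rspo1 and Rspo4. Of the pathway lists the called genes are named. Python 3.11.15, numpy 2.4.6, pandas 2.3.3, scipy 1.17.1 and matplotlib 3.10.9 were used.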

Additional observations from a re-analysis of the deposited data

Results flagged for a closer look

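Of 100 groups of 4 values (50 members in 2 genotypes), 9 had 1 value set well apart from the remaining 3. About 5 (1 in 20) would be so by chance. Mutant 3 was low in Sfrp4, at 2.10 log2 CPM against 4.49 to 4.58 in the other mutants, in Sfrp5, at 6.84 against 7.23 to 7.27, and in Axin1, at 4.35 against 4.51 to 4.53. It was high in Fzd3, at 5.49 against 5.17 to 5.20. Wild type 4 was high in Wnt4, at 2.29 against 0.84 to 1.04 (31 reads against 10 to 14), and in Fzd8, at 3.77 against 3.50 to 3.53. Mutant 4 was low in Dvl3, at 5.13 against 5.46 to 5.50. From few reads, wild type 1 was low in Wnt16, at -0.11 against 1.24 to 1.49 (4 reads against 14 to 20), and wild type 8 in Rnf43, at -1.27 against 0.04 to 0.31 (1 read against 5 to 6).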

How the results depend on the processing

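Wnt2b and Rspo2 were called in all 21 alternatives (highest limma adjusted p 0.0439 and 0.0475), Dkk3 in 20, Fzd5 in 17, Lgr4 in 14 and Lgr5 in 6, with no change of direction. Without the variance trend 142 genes were called in all, with 0 members higher and 1 pathway list gene. Members called higher numbered 1 with no filter, 0 under median centring, 1 under quantile normalization and 1 with the GC trend removed. Leaving out 1 sample gave 404 to 935 calls over all genes (404, 495, 457 and 501 without wild type 1, wild type 3, mutant 1 and mutant 4), 0 to 4 members higher, 3 to 5 lower and 4 to 14 pathway list genes. The labels share the numbers 1, 3 and 4 across genotypes without saying that they pair animals. Correlations of deviations between samples of the same number were 0.0806, 0.0414 and 0.0575, which cannot decide whether they do. With these numbers as a replicate block over 6 samples, 0 members were higher, and 671 genes were called in all. Fzd5 (-0.72; limma adjusted p = 0.0541), Lgr4 (0.26; 0.11) and Lgr5 (0.38; 0.162) lost their calls. The same 6 samples without the block gave 0 members higher, 3 pathway list genes and 447 genes in all, and did not call these 3 either (0.0687, 0.104 and 0.171). Direction turned for Lrp5 (0.033 with the Xist covariate, and from -0.134 to 0.115 when 1 sample was left out), Lrp6 (-0.032 under median centring) and Ctnnb1 (0.007 under quantile normalization). The causes were not tested. With the Xist covariate Wnt6 (0.55; limma adjusted p = 0.0489) and Sfrp5 (0.33; 0.0385) were called and Lgr5 (0.40; 0.0663) was not. Median centring shifted the median difference over all genes (0.066 as deposited, -0.026 centred) and the share of higher calls from 51.6% to 22.4%, and quantile normalization moved that share to 39.1%. The voom fit on recovered reads and the GC correction were added after the data were seen, and the planned edgeR and DESeq2 fits were not run because the deposited unit is not a count. Genes with few reads, such as Sfrp2, Rspo3, Rnf43 and the 15 untested members, are limited by depth.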
